A study of Mus musculus with 19 samples.

Results

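The 9 genes described here mark B cells and the antibody-secreting plasma cells that B cells become. They are Igj (named Jchain in RefSeq), Mzb1, Pou2af1, Spib, Cd79a, Cd79b, Ms4a1, Blk and Cr2. The members were chosen by name from levels measured in these libraries, so their own values are given as a description and carry no test. A row was taken where its symbol equals the name, and 8 of the 9 were found so among the 36172 genes of the table. The other, Mzb1, was found through an older symbol of the same NCBI gene, 2010001M09Rik. The libraries hold whole-ovary RNA of female C57BL/6 mice, an inbred strain, aged 3, 6, 9 or 12 months, with 5, 5, 5 and 4 libraries. The labels name no treatment, genotype or stage of the oestrous cycle, and age is the one thing in which they say the groups differ. Whether the libraries are separate animals is not stated, so the p-values speak to the scatter among libraries, part of which could be technical.

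B cells carry a membrane antibody that signals through the paired chains CD79A and CD79B, and naive B cells gather in the follicles of lymph nodes and spleen. After activation some become plasma cells, which shut down much of the B cell surface programme and secrete antibody. The joining chain encoded by Igj links IgA and IgM into polymers, which the receptor encoded by Pigr carries across epithelia, and plasma cells making IgA are drawn to mucosal tissue in part by the chemokine CCL28.

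The promoters of 4 members are shown because the measured genes include both a coactivator of octamer-binding factors, Pou2af1, and an ETS-family factor, Spib. Each is the 250 bases before the start site listed for the gene by RefSeq in a table on GRCm38.p6, the patch release of the mm10 build, and is read 5′ to 3′ on the strand of the gene. They lie at chr5:88527898-88528147 (Igj, minus strand), chr7:24897247-24897496 (Cd79a, plus strand), chr9:51213440-51213689 (Pou2af1, plus strand) and chr7:44532072-44532321 (Spib, minus strand). The start site the table uses for Spib lies inside the outer bounds of the gene given below, so 16 bases of its window fall within them. Capitals mark matches to the octamer core TGCAAAT and to the purine-rich ETS-type words GAGGAA and AGGAAGT, searched on both strands.
Igj: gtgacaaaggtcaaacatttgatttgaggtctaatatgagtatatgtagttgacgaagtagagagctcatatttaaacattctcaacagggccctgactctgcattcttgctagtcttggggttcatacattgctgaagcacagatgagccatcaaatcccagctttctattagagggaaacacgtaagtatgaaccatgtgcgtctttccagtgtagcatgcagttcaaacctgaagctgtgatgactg
Cd79a: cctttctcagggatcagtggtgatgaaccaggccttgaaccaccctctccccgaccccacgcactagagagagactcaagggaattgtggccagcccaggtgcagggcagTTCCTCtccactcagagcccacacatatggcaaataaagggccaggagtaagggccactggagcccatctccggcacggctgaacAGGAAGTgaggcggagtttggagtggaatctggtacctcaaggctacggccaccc
Pou2af1: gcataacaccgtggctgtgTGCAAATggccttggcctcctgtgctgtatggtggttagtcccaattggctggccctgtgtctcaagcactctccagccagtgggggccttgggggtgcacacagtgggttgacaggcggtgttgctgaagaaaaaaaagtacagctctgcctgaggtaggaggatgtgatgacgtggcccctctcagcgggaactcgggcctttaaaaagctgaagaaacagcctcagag
Spib: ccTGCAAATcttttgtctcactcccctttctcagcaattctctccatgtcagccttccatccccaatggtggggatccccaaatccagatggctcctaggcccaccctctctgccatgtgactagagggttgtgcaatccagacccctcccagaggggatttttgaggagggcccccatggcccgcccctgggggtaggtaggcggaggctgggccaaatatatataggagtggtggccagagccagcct
The octamer core TGCAAAT was present in the windows of Pou2af1, at -231 to -225 from the start site, and Spib, at -248 to -242, and in 3.58% of all 32536 promoter windows of that length. The full octamer ATGCAAAT, which overlaps that core, was found in 1.62% of all windows and in none of the windows of the 5 members matched in that RefSeq table (these 4 and Cr2); Cd79b, Ms4a1 and Blk were not matched. Cd79a held GAGGAA on the opposite strand at -140 to -135, printed as TTCCTC, a word present in 23.36% of windows, and AGGAAGT at -55 to -49, present in 7.7%. None of these words was in the windows of Igj or Cr2. A match is a description of the letters, not a binding site. The genes themselves lie on chromosomes 5 (Igj, 88519809 to 88527897), 9 (Pou2af1, 51213690 to 51240079), 7 (Spib, 44525995 to 44532087, and Cd79a, 24897497 to 24901858), 11 (Cd79b, 106311341 to 106314562), 19 (Ms4a1, 11249679 to 11266149), 14 (Blk, 63372837 to 63417187) and 1 (Cr2, 195136811 to 195176880) of that build.

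Library totals ran from 10851519 to 14302207 estimated counts. Levels are given as library-scaled counts (CPM), so that 1 estimated count was worth 0.0697 to 0.0913 CPM and a level of 0 allowed up to 0.209 to 0.274 CPM by counting error alone (3 counts). No library was a repeat of another, since the chi-square per degree of freedom between same-age libraries was 4.95 to 37.0. Genes that define the ovary (Amh, Gdf9, Zp3, Star, Cyp17a1, Inha, Fshr and Lhcgr) were present in every library at a summed 1346 to 3346 CPM. That sum was 1346 to 1964 CPM in the 3 libraries set apart next and 1889 to 3346 CPM in the others, and 4 of its 8 genes fell and 1 rose at 12 months, also without those 3. Glycam1, a mucin gene of the high endothelial vessels of lymph nodes, stood at 6.71 CPM in 9 month replicate 1, at 26.5 CPM in 9 month replicate 2 and at 34.0 CPM in 12 month replicate 2. In the other 16 libraries it was at most 1.90 CPM. These 3 libraries, called Glycam1-high below, are all among the older ages. Counts of members called, and 12 month counts of most gene lists, are given with and without them. In whole-ovary RNA more cells of a type and more RNA per cell cannot be told apart.

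Igj, the plasma cell member with measurable signal, was higher in every 6, 9 and 12 month library than in any 3 month library. At 3 months it stood at 8.03, 10.2, 9.76, 5.90 and 2.48 CPM. At 6 months the values were 46.7, 17.5, 38.2, 13.1 and 11.3 CPM. At 9 months they were 249, 365, 104, 78.6 and 30.0 CPM, and at 12 months 111, 268.5, 49.8 and 116.5 CPM. The 3 highest values of the series were those of the Glycam1-high libraries, yet the lowest of the other 9 and 12 month libraries, 30.0 CPM, still lay above the highest 3 month value. Mean levels were 7.28 ± 3.18 (SD, n = 5), 25.4 ± 16.03 (n = 5), 165 ± 138 (n = 5) and 136 ± 93.1 CPM (n = 4) at the successive ages. As a difference in mean log2 CPM (prior count 2) from 3 months, Igj was higher by 1.70 ± 0.55 (SE) at 6 months, 4.14 ± 0.73 at 9 months and 4.10 ± 0.61 at 12 months. Without the Glycam1-high libraries these differences were 3.23 ± 0.65 at 9 months (n = 3) and 3.69 ± 0.54 at 12 months (n = 3), and the means were 70.8 ± 37.6 and 92.5 ± 37.1 CPM.

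The second plasma cell member, Mzb1, which encodes an endoplasmic reticulum protein that helps assemble antibody, was listed at 0 in every library. The same was true of all 382 rows of immunoglobulin gene segments and of Xbp1, a transcription factor gene used by secretory cells of many kinds. These rows are therefore read as not quantified in this table, and no statement about the antibody genes themselves can be made. The contrast of plasma cells with B cells rests on Igj alone among the members.

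Pou2af1 and Spib encode nuclear regulators shared by several stages of the B lineage. Pou2af1, the octamer coactivator, was between 0.292 and 0.523 CPM at 3 months. It stood at 2.65, 1.08, 1.12, 1.23 and 0 CPM at 6 months, at 23.2, 21.5, 3.04, 1.33 and 0.533 CPM at 9 months, and at 3.28, 39.8, 0.964 and 4.53 CPM at 12 months. Every 9 and 12 month library was above every 3 month library, and the Glycam1-high libraries held the 3 highest values. The margin at 9 months is not resolved, since replicate 5 (0.533 CPM) and 3 month replicate 2 (0.523 CPM) both had 7 estimated counts. The log2 difference from 3 months was 3.26 ± 1.09 at 12 months and 2.28 ± 0.64 without the Glycam1-high library.

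Spib, the ETS-family factor, which plasmacytoid dendritic cells also use, stood at 0.225, 0.971, 1.005, 0.583 and 0.291 CPM at 3 months and at 0.279 to 2.17 CPM at 6 months. At 9 months it was at 11.4, 13.8, 2.13, 0.702 and 0.609 CPM and at 12 months at 1.02, 22.6, 1.04 and 2.87 CPM. The 9 month values overlapped the 3 month values and the 12 month values did not, though 2 of the 12 month libraries were just above the highest 3 month one. Its log2 difference at 12 months was 2.18 ± 1.06, and 1.22 ± 0.56 without the Glycam1-high library. Siglech, Irf7 and the other plasmacytoid dendritic cell genes summed to 490 to 574 CPM in the Glycam1-high libraries and to 446 to 562 CPM in the others; most of that sum was Tcf4 and Ptprs, which many other cells also express. Siglech, a receptor of these dendritic cells, was at 0.948 to 1.603 CPM at 3 months and at 1.96 to 3.13 CPM at 12 months (0.88 ± 0.33 on the log2 scale, edgeR adjusted p = 0.063). Irf7, their interferon factor, rose by 1.12 ± 0.32 (adjusted p = 0.018), and by 0.55 without the Glycam1-high libraries (adjusted p = 0.035), and lost its call without 12 month replicate 2 alone. The part of these cells in the Spib values was not tested.

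The 5 members of resting and follicular B cells had their highest values in the Glycam1-high libraries, which follows from how they were chosen. For Blk the gap was small, with 3.596 CPM in 12 month replicate 1 beside 4.26 CPM in Glycam1-high 9 month replicate 1. Cd79a, a signalling chain of the B cell receptor, stood at 0.15, 0.448, 0.287, 0.729 and 0.874 CPM at 3 months and at 0.558 to 1.44 CPM at 6 months. It reached 23.7 and 32.4 CPM in 9 month replicates 1 and 2, against 3.57, 1.56 and 0.913 CPM in the other 9 month libraries. At 12 months it was at 0.938, 50.3, 0.519 and 3.93 CPM. Outside the Glycam1-high libraries the 9 month values lay above the 3 month range, the lowest by little, and the 12 month values overlapped it.

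Cd79b, the partner chain, stood at 0.675, 1.35, 3.02, 1.24 and 0.801 CPM at 3 months, and at 19.2, 25.2, 3.35, 3.04 and 1.29 CPM at 9 months. At 12 months it was at 5.24, 36.0, 1.71 and 5.06 CPM. Of the members other than Igj it was the one the authors kept in their filtered table, a table limited to genes whose raw values reach 20 in all libraries of some age. Its 3 and 12 month values overlapped through 12 month replicate 3 and 3 month replicate 3.

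Ms4a1, which encodes the surface protein CD20, had a lower mean at 12 than at 3 months once the Glycam1-high library was set aside. It stood at 1.58, 1.20, 2.01, 1.46 and 1.97 CPM at 3 months and at 1.37, 1.01, 2.005, 0.363 and 0.907 CPM at 6 months. At 9 months it was at 25.7, 33.0, 3.57, 1.48 and 1.06 CPM and at 12 months at 0.938, 53.6, 0.148 and 2.49 CPM. The 3 and 12 month values overlapped, with 2 of the 4 libraries of 12 months below all those of 3 months. Its log2 difference at 12 months was 0.56 ± 1.6 with all libraries and -0.89 ± 0.92 without 12 month replicate 2, so its sign turned on that library. The edgeR fit, which models the group mean of counts and so gives the high library more weight, put the change at 3.11 ± 1.22, and at -0.45 without the Glycam1-high libraries.

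Blk, a SRC-family kinase of the B cell receptor, and Cr2, the complement receptor of follicular B cells and follicular dendritic cells, differed from each other at 12 months. Blk was at 0.0729 to 0.718 CPM at 3 months, at 4.26, 5.98, 1.29, 0.702 and 0.457 CPM at 9 months and at 3.596, 8.04, 0.964 and 2.04 CPM at 12 months. Every 12 month library was above every 3 month library for Blk, and the log2 difference was 2.71 ± 0.70, or 2.22 ± 0.62 without the Glycam1-high library. Cr2 was at 0.15, 0.299, 0, 0.583 and 0.801 CPM at 3 months, at 6.15, 10.7, 0.837, 0.390 and 0.228 CPM at 9 months and at 0.782, 12.6, 0.519 and 0.604 CPM at 12 months. Outside the Glycam1-high libraries its values were at most 0.837 CPM, and the 3 and 12 month ranges overlapped.

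**Figure D1:**
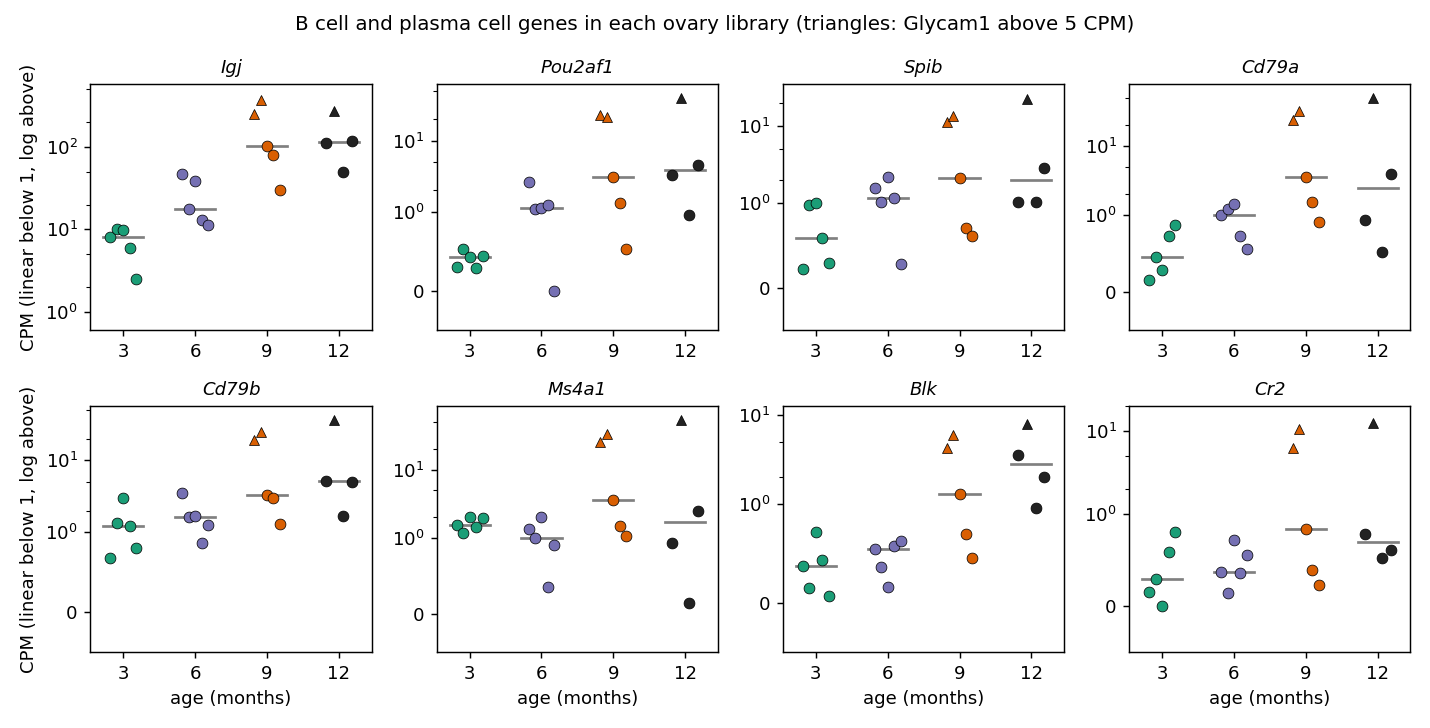
Level of each measured member in every ovary library (CPM, vertical axis linear below 1 and logarithmic above) against age in months. Points are libraries, triangles are the 3 libraries with Glycam1 above 5 CPM and grey lines are medians over the libraries of an age; Igj lies above its 3 month range in every older library, while Ms4a1 and Cr2 stand far above it chiefly in the triangles.

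In the fit of all genes, the 8 measured members all passed the low-count filter. For 12 against 3 months 22.4% of the 15518 genes tested were called in either direction and 10.9% were called upward at an adjusted p under 0.05. Called upward were 6 of the 8 members, all but Ms4a1 and Cr2, and none was called downward. For 9 against 3 months 11.3% of genes and 7 of the 8 members, all but Ms4a1, were called upward, and for the linear trend over age 14.7% of genes and 8 of the 8 members. Without the Glycam1-high libraries, 12.1% of genes and 5 of the 8 members were called upward at 12 months, namely Igj, Blk, Pou2af1, Cd79a and Cd79b. In that setting 8.19% of genes and 2 members, Igj and Cd79a, were called at 9 months, and 13.2% of genes and 5 members, the same as at 12 months, along the trend. The 9 month count was 4 (Igj, Blk, Pou2af1 and Cd79a) when replicate 1, 4 or 5 of 3 months or either Glycam1-high library of 9 months was left out, and the trend count was 5 without 12 month replicate 2. At 12 months, leaving out replicate 2 of that age alone left 2 members called, Igj and Blk. Leaving out 3 month replicate 1 or 3 month replicate 5 left 4, with the calls on Cd79b and Spib lost, and leaving out 3 month replicate 4 left 5, with that on Spib lost. Because the members were picked for their levels in these contrasts, nothing is read from these counts. Deposited counts were estimates that need not be whole, and a level of 1 CPM or less rested on very few of them.

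Per kilobase of exon, which allows genes to be compared, Igj was the most abundant member at every age. At 12 months without the Glycam1-high library its mean level was 66.4 CPM per kilobase, against 2.80 for Cd79b, 1.23 for Cd79a, 1.15 for Pou2af1, 0.946 for Blk, 0.589 for Spib, 0.388 for Ms4a1 and 0.0865 for Cr2. The lowest Igj library of that set, at 35.7 CPM per kilobase, was above the highest of any other member, 3.66 for Cd79b. The ranges of Cd79b and Cd79a (0.356 to 2.70), and those of Cd79a, Pou2af1 (0.378 to 1.78), Blk (0.415 to 1.55), Spib (0.364 to 1.03) and Ms4a1 (0.0483 to 0.811), overlapped, so the order among these neighbours is not resolved. Cr2, at 0.0707 to 0.106, overlapped Ms4a1 alone. At 3 months the mean was 5.23 for Igj and 0.989 for Cd79b, the next highest, and their ranges overlapped (1.78 to 7.35 and 0.472 to 2.11 CPM per kilobase).

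The ratio of Igj to the summed CPM of Cd79a, Cd79b, Ms4a1, Blk and Cr2 sets the plasma cell member beside the follicular members within each library, and scaling between libraries cancels in it. The follicular members were chosen for peaking in libraries with lymph node transcripts, so a low ratio there follows from that choice and is no finding. It was 2.74, 2.98, 1.62, 1.33 and 0.548 at 3 months and 6.91, 3.98, 6.35, 4.53 and 2.89 at 6 months. At 9 months it was 8.23, 11 and 7.58 in replicates 3, 4 and 5, and at 12 months 9.67, 12.9 and 8.25 in replicates 1, 3 and 4. These 6 libraries were above every 3 and 6 month library. The members were chosen with this contrast in view, so that order is also a description and was not tested. In the Glycam1-high libraries the ratio was 3.15 and 3.40 at 9 months and 1.67 at 12 months, within the range of the 3 and 6 month libraries. There the summed B cell members stood at 79.0, 107 and 160.5 CPM, against 2.90 to 14.1 CPM in the other 16 libraries.

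**Figure D2:**
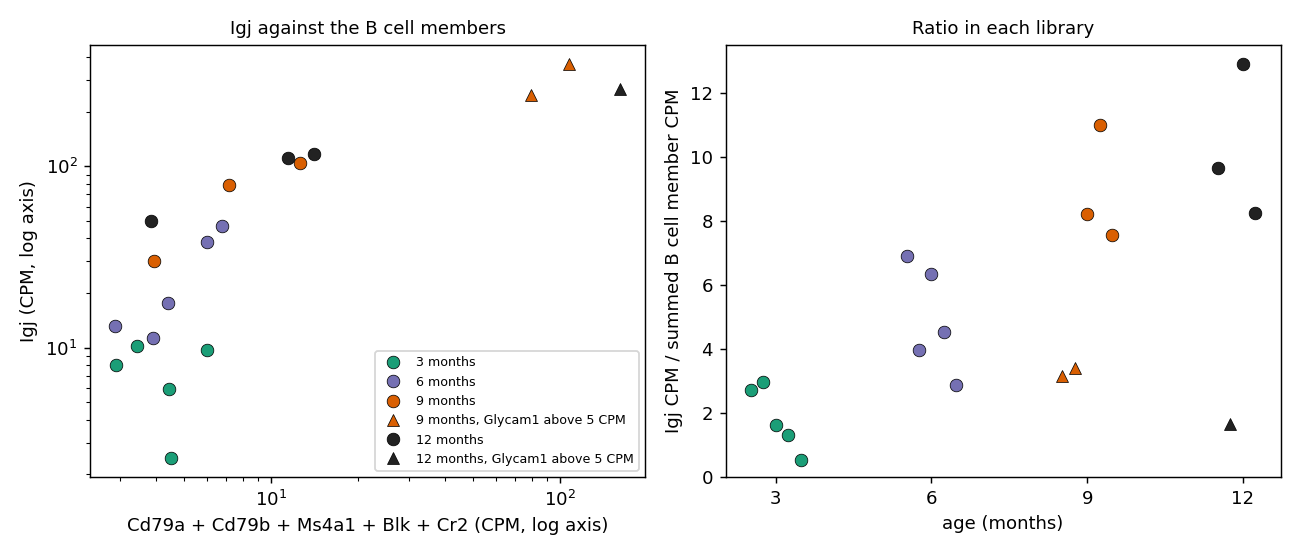
Left, Igj (CPM, log axis) against the summed CPM of Cd79a, Cd79b, Ms4a1, Blk and Cr2 (log axis), one point per library; right, their ratio by age in months. Circles at 9 and 12 months have ratios of 7.58 to 12.9, above all libraries of 3 and 6 months, while the triangles, the libraries with Glycam1 above 5 CPM, have 1.67 to 3.40.

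The members' relation to Igj across the 19 libraries also depended on the Glycam1-high libraries to unequal degrees. These are descriptions over libraries that share age and depth, on log2 CPM. Pearson's r with Igj was 0.875 for Pou2af1, 0.869 for Cd79b, 0.857 for Blk, 0.826 for Spib, 0.807 for Cd79a, 0.698 for Cr2 and 0.615 for Ms4a1. Over the 16 libraries without them it was 0.787 for Pou2af1, 0.805 for Cd79b, 0.733 for Blk, 0.692 for Spib and 0.655 for Cd79a, but 0.308 for Cr2 and 0.048 for Ms4a1. The 5 tested genes whose levels were most like those of Igj over 19 libraries were Unc93b1 (r = 0.945, Spearman's rho = 0.928), which encodes a trafficking protein of endosomal Toll-like receptors, Ttc7 (r = 0.923, rho = 0.930), the secreted glycoprotein gene Lgals3bp (r = 0.920, rho = 0.923), Gpr132 (r = 0.915, rho = 0.928) and Laptm5 (r = 0.913, rho = 0.926), a lysosomal membrane protein gene of blood cells. Over the 16 libraries their r with Igj was 0.846 to 0.905. The genes most like the mean of the 5 follicular members were Btla (r = 0.962, rho = 0.830), an inhibitory receptor of lymphocytes, Coro1a (r = 0.956, rho = 0.795), an actin-binding protein gene of leukocytes, Akna (r = 0.953, rho = 0.8), Rasal3 (r = 0.952, rho = 0.809) and Ltb (r = 0.948, rho = 0.853), which encodes lymphotoxin beta. Over the 16 libraries those values were 0.638 to 0.763.

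Of 14 other plasma cell genes listed, 12 were tested, 3 rose and none fell between 3 and 12 months, and their median log2 change was 0.34 beside 0.02 over all genes tested, 10.9% of which rose. Fkbp11, a prolyl isomerase of the secretory pathway, rose by 1.05 ± 0.23 (log2, SE; edgeR adjusted p = 0.0048), from 9.99 ± 0.82 CPM (SD, n = 5) to 20.6 ± 6.06 CPM (n = 4), and every 12 month library was above every 3 month one. Slamf7, a surface receptor of plasma cells and other leukocytes, rose by 1.04 ± 0.30 (adjusted p = 0.020) and Eaf2, an elongation factor partner, by 0.65 ± 0.20 (adjusted p = 0.028). Pim2, a survival kinase, differed by 0.38 ± 0.14 and was not called (adjusted p = 0.062). Prdm1 (0.25 ± 0.18) and Irf4 (1.19 ± 0.65), transcription factors of plasma cell fate, were not called either, nor was Sdc1 (-0.42 ± 0.36), a proteoglycan of plasma cells and epithelia that stood at 69.3 to 248 CPM at these ages. These 3 were chosen after their values were seen. Irf4 stood at 17.7, 11.7 and 11.1 CPM in the Glycam1-high libraries and at most at 3.43 CPM elsewhere. For 9 against 3 months 3 of the 12 rose and none fell, where 11.3% of all genes rose. They were Irf4 (1.94 ± 0.62, edgeR adjusted p = 0.029), Prdm1 (0.54 ± 0.17, adjusted p = 0.029) and Slamf7 (0.96 ± 0.29, adjusted p = 0.022). These 9 month values include the Glycam1-high libraries. At 12 months the list counted 2 risen genes without the Glycam1-high libraries (Fkbp11 and Slamf7), where 12.1% of all genes rose. It counted 1 without 12 month replicate 2 alone. Slamf7 lost its call without that library, and Eaf2 without that library, 12 month replicate 3 or 3 month replicate 1, 2, 3 or 5.

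Of the genes of B cell receptor signalling all 22 were tested, 15 rose and none fell at 12 months, where 10.9% of all genes rose. Their median log2 change was 0.997 beside 0.02 over all genes tested. Inpp5d, a lipid phosphatase gene, rose by 0.92 ± 0.20 (edgeR adjusted p = 0.0045), Blnk, the adaptor downstream of the receptor, by 0.89 ± 0.20 (adjusted p = 0.0047), Lyn, a SRC-family kinase, by 0.70 ± 0.17 (adjusted p = 0.0073) and Plcg2, a phospholipase, by 0.96 ± 0.24 (adjusted p = 0.010). Blnk went from 14.1 ± 1.12 CPM (SD, n = 5) to 26.2 ± 6.14 CPM (n = 4). These 4 genes are also used by macrophages and other myeloid cells, and C1qc, Cd68, C1qa and C1qb, 4 of 8 macrophage genes, rose in the same comparison by 0.64 to 0.94. Without the Glycam1-high libraries 4 macrophage genes rose as well, with a list median of 0.416 (0.485 with all). The summed macrophage list stood at 513 to 571 CPM in the Glycam1-high libraries and at 259 to 506 CPM in the others, and its part in the signalling genes was not tested. Without those libraries 8 genes of the signalling list rose, beside 12.1% of all genes, and 1 fell, with a median of 0.61. The signalling list had 9 changed genes without 3 month replicate 3 and 6 without 12 month replicate 2, and the 4 genes named with a p kept their calls without any 1 library.

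Of 13 B cell transcription factors tested, 4 rose and 2 fell at 12 months, with a median of 0.44. Over all 15518 genes tested 1693 rose and 1782 fell, so nothing is read from the count of fallen factors. Irf8 rose by 0.84 ± 0.21 (edgeR adjusted p = 0.0099), Spi1, which encodes PU.1 (row Sfpi1), by 0.86 ± 0.26 (adjusted p = 0.024) and Ikzf3, the lymphocyte factor Aiolos, by 2.20 ± 0.67 (adjusted p = 0.025), while Foxo1 fell by 0.53 ± 0.14 (adjusted p = 0.013). Irf8 and Spi1 are also myeloid factors, and Foxo1 is abundant in granulosa cells. Pax5, the factor that holds B cell identity, was at a mean of 0.0431 CPM at 3 months and reached 4.29 CPM in 12 month replicate 2, and was not called (adjusted p = 0.069). Without the Glycam1-high libraries 4 rose and 2 fell among 12 tested, with a median of 0.14, where 12.1% of all genes rose. The changed genes numbered 2 without 3 month replicate 3, and 3 without 3 month replicate 5 or 12 month replicate 2. Irf8 and Foxo1 kept their calls without any 1 library, whereas the call on Spi1 needed each of 4 libraries (replicates 3 and 4 of 3 months, 1 and 2 of 12 months), as did that on Ikzf3 (replicates 2, 3 and 5 of 3 months, 2 of 12 months).

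Surface genes of mature B cells showed the largest median of the lists on the B lineage, and it rested on the Glycam1-high libraries. Of 15 listed, 12 were tested, 6 rose and none fell, with a median of 2.30, where 10.9% of all genes rose. Cd37, a tetraspanin gene, rose by 2.18 ± 0.63 (edgeR adjusted p = 0.021), Faim3, the receptor for IgM, by 5.56 ± 1.64 (adjusted p = 0.023), Btla by 2.48 ± 0.78 (adjusted p = 0.030) and Fcrla by 2.57 ± 0.82 (adjusted p = 0.033). Faim3 was at 0 to 0.215 CPM at 3 months and at 19.8 CPM in 12 month replicate 2, and its fold depends on the prior count. Without the Glycam1-high libraries 1 of 11 tested rose, Cd37, by 1.13, beside 12.1% of all genes, and the median was 0.51. The summed list stood at 139 to 286 CPM in those libraries and at 30.5 to 69.6 CPM in the other 16. The edgeR count was 0 without 12 month replicate 2 (also 0 at an unadjusted p under 0.05), 1 without 3 month replicate 5, 2 without 3 month replicate 2 or 3, 3 without 3 month replicate 4 and 12 without 12 month replicate 4. The call on Faim3 was also lost when either Glycam1-high library of 9 months or 3 month replicate 5 was left out, that on Btla without 3 month replicate 1, 2, 3 or 5 and that on Fcrla without 3 month replicate 2, 3, 4 or 5.

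Factors that attract or keep B lineage cells included the listed gene with the smallest p in this comparison, Ccl28. Of 12 listed, 9 were tested, 4 rose and none fell at 12 months, with a median of 0.63, where 10.9% of all genes rose. Ccl28, the gene of a mucosal chemokine that recruits IgA plasma cells, stood at 2.18, 3.88, 5.31, 5.39 and 6.92 CPM at 3 months. At 12 months it stood at 41.4, 11.7, 31.3 and 19.95 CPM. It rose by 2.46 ± 0.39 (edgeR adjusted p = 0.00084) and every 12 month library was above every 3 month library. Its lowest 12 month value was that of the Glycam1-high library, and without those libraries the change was 2.70 (adjusted p = 0.00025). The call held without any 1 library. Ccr10, the receptor of CCL28 on plasma cells, was at 0.811 ± 0.266 CPM (SD, n = 5) and 1.20 ± 0.417 CPM (n = 4) and was not called (0.56 ± 0.42), and is named because it pairs with Ccl28.

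Cxcl13, which draws B cells into follicles, rose by 2.06 ± 0.66 (edgeR adjusted p = 0.032), from 1.28 ± 0.36 to 5.36 ± 3.12 CPM (SD, n = 5 and 4). Itga4, the alpha chain of the integrin that binds VCAM1, rose by 1.02 ± 0.33 (adjusted p = 0.033) and Vcam1 itself by 0.68 ± 0.23 (adjusted p = 0.041). Without the Glycam1-high libraries 3 of the 9 rose, Ccl28, Cxcl13 and Itga4, where 12.1% of all genes rose. The count fell to 2 without 3 month replicate 1, 2 or 3 or 12 month replicate 1, and to 1 without 3 month replicate 4, 3 month replicate 5 or 12 month replicate 2. Vcam1 lost its call in each of those settings but that without 3 month replicate 2, and also without 12 month replicate 3; Cxcl13 kept it without 3 month replicate 3, and Itga4 without 3 month replicate 1 or 12 month replicate 1. At 9 months 7 of the 9 rose, where 11.3% of all genes rose. Among the 7 were Tnfsf13b (the B cell survival factor BAFF), Cxcl12 and its receptor gene Cxcr4. Without the Glycam1-high libraries 5 rose there, beside 8.19% of all genes, with Tnfsf13b and Cxcl13 no longer called.

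Receptors that bind or carry antibody rose in part, with 4 of 8 tested genes called upward, none downward and a median of 0.61 (0.49 without the Glycam1-high libraries, with 3 rising). Over all genes tested 10.9% were called upward, and 12.1% without those libraries. Pigr, the epithelial carrier of polymeric antibody, stood at 4.43, 3.88, 2.01, 5.90 and 5.25 CPM at 3 months and at 14.5, 13.5, 15.6 and 13.98 CPM at 12 months. It rose by 1.74 ± 0.42 (edgeR adjusted p = 0.0085), the groups did not overlap, and the Glycam1-high library was level with the others; at 9 months it ranged from 3.90 to 32.6 CPM. Fcgr3 (0.67 ± 0.16, adjusted p = 0.0076), Fcgr2b (0.56 ± 0.16, adjusted p = 0.019) and Fcer1g (0.94 ± 0.29, adjusted p = 0.027), which encode Fc receptors of myeloid cells and their signalling chain, also rose. Fcgrt, the neonatal Fc receptor gene, differed by 0.17 ± 0.12 at 12 months and was not called (named after seeing its values). For 9 against 3 months, with the Glycam1-high libraries kept, it was called upward (0.57 ± 0.11, edgeR adjusted p = 0.0016). At 12 months Pigr and Fcgr3 kept their calls without any 1 library. Without 3 month replicate 5 the count was 2, with Fcgr2b and Fcer1g lost, Fcgr2b was also lost without 12 month replicate 2, and Fcer1g when replicate 2 or 4 of 3 months or replicate 1 of 12 months was left out.

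**Figure D3:**
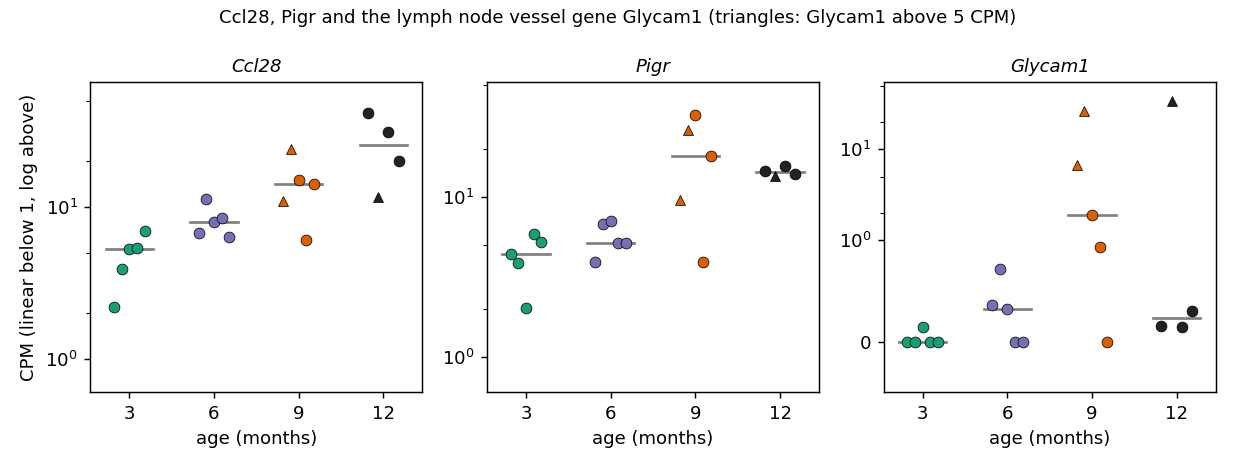
Level (CPM, linear below 1 and logarithmic above) of Ccl28, Pigr and Glycam1 in each library against age in months, with medians as grey lines and triangles for the 3 libraries with Glycam1 above 5 CPM. The 12 month libraries lie above all 3 month libraries for Ccl28 and Pigr, where the triangles do not stand out as they do for Glycam1.

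Genes of other cells moved with the follicular members. Of 12 T cell genes 8 rose with a median of 2.35, where 10.9% of all genes rose. Without the Glycam1-high libraries 2 of 11 tested rose (Cd3e and Cd3g, median 0.82), beside 12.1% of all genes. Without 12 month replicate 2 alone, with the 9 month libraries kept, the edgeR count of T cell genes was 0 (2 at an unadjusted p under 0.05). It was 3 without 3 month replicate 2, 3 or 5 and 4 without 3 month replicate 4. Their summed level was 82.3 to 181 CPM in the Glycam1-high libraries and 11.5 to 31.8 CPM in the others. Of 6 tested genes of lymph node stroma and vessels, Ccl21a, Ltb and Glycam1 rose and Coch fell, with a median of 1.09. The share of all genes that rose was 10.9% there. Without the Glycam1-high libraries 2 of 5 tested rose, beside 12.1% of all genes, and 1 fell, with a median of 0.295. Ccl21a, a chemokine gene of lymphatic endothelium, rose by 0.55 ± 0.11 (edgeR adjusted p = 0.0031) and by 0.49 without the Glycam1-high libraries. Ltb rose by 2.53 ± 0.68 (adjusted p = 0.015) and Coch fell by 1.36 ± 0.27 (adjusted p = 0.0027), while the fitted Glycam1 change of 7.80 ± 2.22 (adjusted p = 0.020) came from 1 library of 4 and was lost without it or without 3 month replicate 3. Ltb lost its call without 12 month replicate 2 as well, with the 9 month libraries kept. Without all the Glycam1-high libraries it was called, at 1.15 ± 0.34 (edgeR adjusted p = 0.020). The summed list was at 160 to 209.6 CPM in the Glycam1-high libraries and at 82.0 to 125 CPM in the others, with Ccl21b listed at 0 throughout and 2 genes called without 12 month replicate 2. The part of lymph node tissue in the levels of the B cell members was not tested, and the labels do not describe how the ovaries were trimmed.

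**Figure D4:**
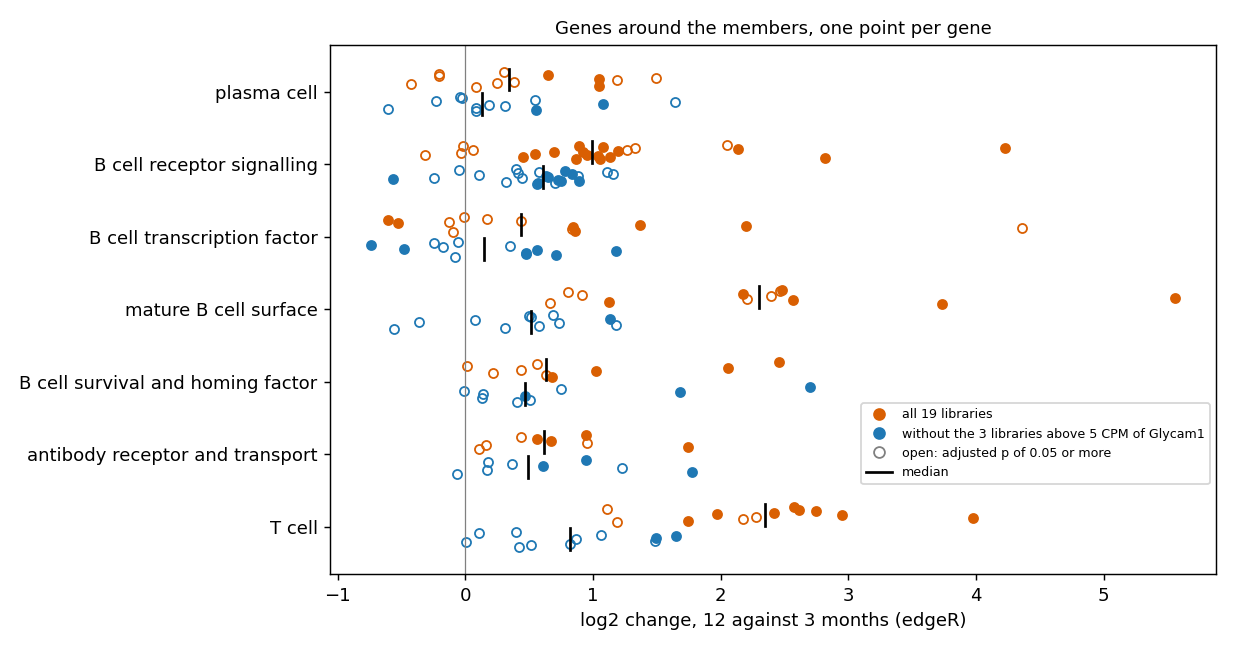
Log2 change between 3 and 12 months (horizontal axis, edgeR) of every tested gene in 7 lists, in orange for all 19 libraries and in blue without the 3 libraries above 5 CPM of Glycam1; filled points have an adjusted p under 0.05 and black bars are medians. The median of the mature B cell surface genes goes from 2.30 to 0.51 and that of the T cell genes from 2.35 to 0.82, while that of the antibody receptor genes goes from 0.61 to 0.49.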

How the data were processed

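Ovaries were frozen on dry ice, RNA (integrity above 7) was taken with a column kit, and the library kit is strand-specific, per the labels' protocols. Per the submitters' processing notes the build was mm10; aligner and counter were not given in the sources used here. The authors deposited estimated counts per gene, per the file headers and the values (17.4% to 21.4% of nonzero values whole within 1e-08), and log2 values normalized by a method not given, used as an alternative. A further per-library column (1 in each file) matches no sample and was not used.

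Ages came from the labels. Counts were rounded and tested with edgeR 4.0.16 (R 4.3.3; quasi-likelihood, robust, TMM, low-count filter with minimum count 10 and total 15, a mean per age over 19 libraries), with Benjamini-Hochberg adjustment over all genes and a threshold of 0.05. List changes are edgeR log2 changes; member changes are differences of mean log2 CPM (prior count 2). Alternatives were DESeq2 1.42.0, its size factors, limma 3.58.1 with those log2 values, no low-count filter, a prior count of 0.5, and leaving out libraries. Named are the members, up to 4 genes of each list with the smallest p, Glycam1, and the 5 genes most like Igj and most like the B cell members. Members and lists were chosen with earlier results of these data known. One gene of the lists is not reported here. Promoter words were chosen with the sequences in view. On simulated counts (15395 genes, 12 against 3 months) the test recovered 39 of 67 genes with a 1.5-fold change, 51 of 67 at 2-fold and 62 of 66 at 4-fold, and made 5 false calls. Overlapping genes are uncertain, since strand use in counting is not given.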

Additional observations from a re-analysis of the deposited data

Results flagged for a closer look

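In 10 of 44 combinations of gene and age 1 library stood apart from the rest by Dixon's test, and 8 of these were in Glycam1-high libraries. Chance flags about 1 in 20 where values are independent and normally spread, which CPM of genes that move together need not be. The members were chosen with their levels by library in view, and Glycam1 itself set those libraries apart. No excess over chance is therefore read from the count. At 12 months replicate 2 was set apart by that test, as the highest library, for 7 genes. It stood at 39.8 CPM for Pou2af1 (others 0.964 to 4.53), 22.6 CPM for Spib (others 1.02 to 2.87), 50.3 CPM for Cd79a (others 0.519 to 3.93) and 36.0 CPM for Cd79b (others 1.71 to 5.24). For Ms4a1 it was 53.6 CPM (others 0.148 to 2.49), for Cr2 12.6 CPM (others 0.519 to 0.782) and for Glycam1 34.0 CPM (others 0.148 to 0.302). Replicate 2 was also the highest 12 month library for Igj and Blk, but the test did not set it apart there. Glycam1 was also set apart at 26.5 CPM in 9 month replicate 2 (others 0 to 6.71), and met the same criterion at 0.144 CPM in 3 month replicate 3, which is 2 estimated counts where the others had 0 and is within counting error of them. Cd79b stood at 3.02 CPM in 3 month replicate 3 (others 0.675 to 1.35).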

How the results depend on the processing

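Members below 1 CPM are limited by depth. No paired analysis was possible because the labels number no replicates across ages. The log2 change of Ms4a1 (0.56) turned to -0.891 without the Glycam1-high libraries, and equally without 12 month replicate 2; the other members kept their sign in every alternative run. Without the Glycam1-high libraries the count of changed genes at 12 months was 9 for B cell receptor signalling (15 with all) and 1 for mature B cell surface (6 with all). With limma on the authors' log2 values it was 1 for mature B cell surface and 2 for survival and homing factors (4 by edgeR). The cause was not tested. Leaving out each library in turn gave 2124 to 3806 changed genes at 12 months (2124 without 12 month replicate 3), 1 to 4 plasma cell, 6 to 18 receptor signalling, 2 to 7 transcription factor, 0 to 12 mature surface, 1 to 4 survival and homing, 2 to 4 antibody receptor and 2 to 6 lymph node genes, and a log2 change of Ms4a1 of -0.891 to 1.606. Over all genes, counts for 12 against 3 months, 9 against 3 months and the trend were compared with the main run. DESeq2, its size factors, limma, no filter and leaving out the Glycam1-high libraries stayed within 1.5 times of it. Leaving out single libraries did too, except 12 month replicate 3 for 12 against 3 months (2124 genes, 3475 with all).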
